A study of Mus musculus with 23 samples.

Results

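Rag1, Rag2 and Dntt, the lymphocyte-restricted genes of the receptor gene recombination machinery, were followed through 23 mouse RNA samples. They were taken by gene symbol and are 3 of the 24475 genes measured. As controls, 6 thymuses came from normal C57BL/6 animals. The remaining samples were spleens bearing T-cell acute lymphoblastic leukemia (T-ALL) from BALB/c hosts of the genotype Rag2-/-Il2rg-/- that carried a grafted donor thymus. The donor was wild type for 14 spleens (WT T-ALL) and Notch3 knockout for 3 (Notch3 KO T-ALL). Wild-type donors were newborn B6.Ly5.1 mice, and in the knockout allele a β-galactosidase gene is inserted near the start of the coding sequence of Notch3. Ages of the control mice were not given in the sources used here. Tissue and the strain of the sampled animal thus divided in the same way as disease. The host cells in the spleens carry no working Rag2 gene, whereas the grafted thymus does.

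Developing T and B cells assemble their antigen receptor genes from V, D and J segments. The RAG1 and RAG2 proteins form the recombinase that binds the signal sequence beside each segment and cuts the DNA, leaving hairpins on the coding ends. The nuclease Artemis opens the hairpins, terminal deoxynucleotidyl transferase (the product of Dntt) adds nucleotides without a template, and end joining proteins seal the break. In the thymus the Rag genes are active at the double-negative stage, when the T-cell receptor β chain is assembled, and again at the double-positive stage, when the α chain is assembled. They are silent in mature T cells.

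Positions are from GENCODE M21 on GRCm38. Rag2 (gene 19374, chromosome 2, 101624718 to 101632529, plus strand, 3 exons) and Rag1 (gene 19373, chromosome 2, 101638282 to 101649501, minus strand, 2 exons) face each other with 5752 bases between their 3′ ends. Dntt (gene 21673, chromosome 19, 41029275 to 41059525, plus strand) has 12 exons. B230118H07Rik, now named Iftap, spans chromosome 2 from 101560781 to 101649532 on the minus strand and covers both Rag genes. The first exon of some of its transcripts (101649422 to 101649532) includes the first Rag1 exon on the same strand, and another of its exons (101630341 to 101630548) lies opposite the last Rag2 exon. The libraries were stranded, but whether the counting used strand was not given in the sources used here, so reads from these stretches cannot be assigned with certainty.

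The 250 bases before the RefSeq start of each gene (GRCm38.p6) are shown because the values of the 3 genes are compared with those of the factors that act on them. They are written along the gene's own strand, with the base nearest the start last. Capitals mark the E-box (CANNTG, bound by E proteins such as the products of Tcf3 and Tcf12) and the Runx motif (TGTGGT), searched on both strands. Before Rag1, an E-box and a Runx motif overlap and form a single run of capitals.
Rag1, chr2:101649533-101649782, minus strand: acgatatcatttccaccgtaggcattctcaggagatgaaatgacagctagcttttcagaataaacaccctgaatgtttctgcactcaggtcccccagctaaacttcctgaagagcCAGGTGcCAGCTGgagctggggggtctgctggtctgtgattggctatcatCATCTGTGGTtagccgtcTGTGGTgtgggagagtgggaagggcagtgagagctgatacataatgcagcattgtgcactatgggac
Rag2, chr2:101624462-101624711, plus strand: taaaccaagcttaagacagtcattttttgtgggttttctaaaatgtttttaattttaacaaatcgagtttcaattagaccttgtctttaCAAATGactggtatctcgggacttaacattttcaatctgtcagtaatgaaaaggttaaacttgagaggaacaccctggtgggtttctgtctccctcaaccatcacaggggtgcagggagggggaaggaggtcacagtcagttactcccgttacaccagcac
Dntt, chr19:41029025-41029274, plus strand: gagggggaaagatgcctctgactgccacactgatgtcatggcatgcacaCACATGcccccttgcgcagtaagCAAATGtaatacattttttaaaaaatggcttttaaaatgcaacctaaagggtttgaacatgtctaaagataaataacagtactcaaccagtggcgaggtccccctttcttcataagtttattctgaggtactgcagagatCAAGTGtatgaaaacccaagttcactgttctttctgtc
The E-box was found 3 times before Rag1, 1 time before Rag2 and 3 times before Dntt, and 66.2% of 32851 promoter windows of this length held it. The Runx motif was found 2 times, both before Rag1, and 14% of windows held it. Each of the 3 windows also held 1 copy of GGGAA, the core letters of the Ikaros motif, which 56.2% of windows held. These are matches of letters, not measured binding.

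Values below are log2(scaled RPKM + 1) unless another unit is named. RPKM is the read count divided by transcript length and by the mapped reads of the library, scaled here to a 75th percentile of 10 in every sample. Samples carry the number of their label. Across all genes, samples of a group correlated at 0.98 or more in thymus, 0.93 or more in WT T-ALL and 0.96 or more in Notch3 KO T-ALL. Notch3 read 3.22, 2.59 and 3.74 in Notch3 KO T-ALL 1, 2 and 3, against 2.62 to 4.29 in thymus and 3.17 to 5.78 over the WT T-ALL samples. Transcript beyond the insertion may still be counted, so this is no strict check of the labels. The mean of 8 T-lineage markers (Cd3d, Cd3e, Cd3g, Cd247, Lck, Thy1, Cd2, Cd5) was 8.11 to 8.37 in thymus, while WT T-ALL samples had 7.01 to 8.21 and Notch3 KO T-ALL samples 7.01 to 7.75. The samples also fell into 2 sets by the mean of 5 genes, a division found in the data and named by no label. The 5 genes were picked because they part thymus 5 and 6 from the other thymus samples. They are called library sets below, but what divides them is not known. Set A held thymus 5 and 6, WT T-ALL 3, 4, 5 and 7 and all 3 Notch3 KO T-ALL samples, and set B held 4 thymus and 10 WT T-ALL samples.

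Rag1, the catalytic subunit of the recombinase, was lower in every leukemic spleen than in any thymus. The lowest, median and highest thymus values were 9.75, 10.08 and 10.70. In WT T-ALL they were 3.60, 7.09 and 7.85. Notch3 KO T-ALL 1, 2 and 3 read 3.81, 8.62 and 4.72. The thymus samples stayed close together, while the leukemias ran from 2 samples near 3.6 (WT T-ALL 110 and 120, at 3.60 and 3.64) to 1 at 8.62, and no leukemia reached the thymus range. As scaled RPKM the mean was 1118 ± 294 in thymus (SD, n = 6), and it was 125 ± 81.2 over the 14 WT T-ALL samples and 144 ± 216 over the 3 Notch3 KO T-ALL samples. Set against the thymus mean, Rag1 stood at 0.994% to 20.5% in WT T-ALL (median 12.1%), while Notch3 KO T-ALL 1, 2 and 3 held 1.17%, 35.1% and 2.27%.

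Rag2, the partner subunit without which RAG1 does not cut, was the least abundant of the 3 genes and also lay below all thymus values in every leukemia. The lowest, median and highest thymus values were 6.21, 6.59 and 6.79. In WT T-ALL they were 1.00, 4.59 and 5.98. Notch3 KO T-ALL 1, 2 and 3 read 1.08, 5.56 and 2.36. WT T-ALL 14 and 5 came nearest to thymus, at 5.98 and 5.91, and WT T-ALL 120, 110 and 7 and Notch3 KO T-ALL 1 were all below 2. As scaled RPKM the mean was 92.1 ± 14.3 in thymus, 25.6 ± 20.9 in WT T-ALL and 17.2 ± 25.2 in Notch3 KO T-ALL. The WT T-ALL samples stood at 1.08% to 67.5% of the thymus mean, with a median of 25.6%, and Notch3 KO T-ALL 1, 2 and 3 at 1.21%, 50.2% and 4.49%.

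Dntt, which encodes the template-free polymerase, was lower in the leukemias as well but remained abundant in all of them. The lowest, median and highest thymus values were 9.31, 9.57 and 10.05. In WT T-ALL they were 6.68, 7.86 and 8.82. Notch3 KO T-ALL 1, 2 and 3 read 7.08, 8.22 and 7.81. No leukemia overlapped the thymus range, and the lowest value belonged to WT T-ALL 110, which was also the lowest for Rag1 and held the highest neutrophil marker mean (11.86, against 5.15 in the lowest WT T-ALL). WT T-ALL 120, with Rag1 at 3.64, had a neutrophil mean of 5.93, and no relation with that mean was computed. As scaled RPKM the mean was 796 ± 162 in thymus, 265 ± 99.7 in WT T-ALL and 219 ± 81.8 in Notch3 KO T-ALL. The WT T-ALL samples stood at 12.7% to 56.5% of the thymus mean, with a median of 29.1%, and Notch3 KO T-ALL 1, 2 and 3 at 16.9%, 37.4% and 28.1%.

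**Figure D1:**
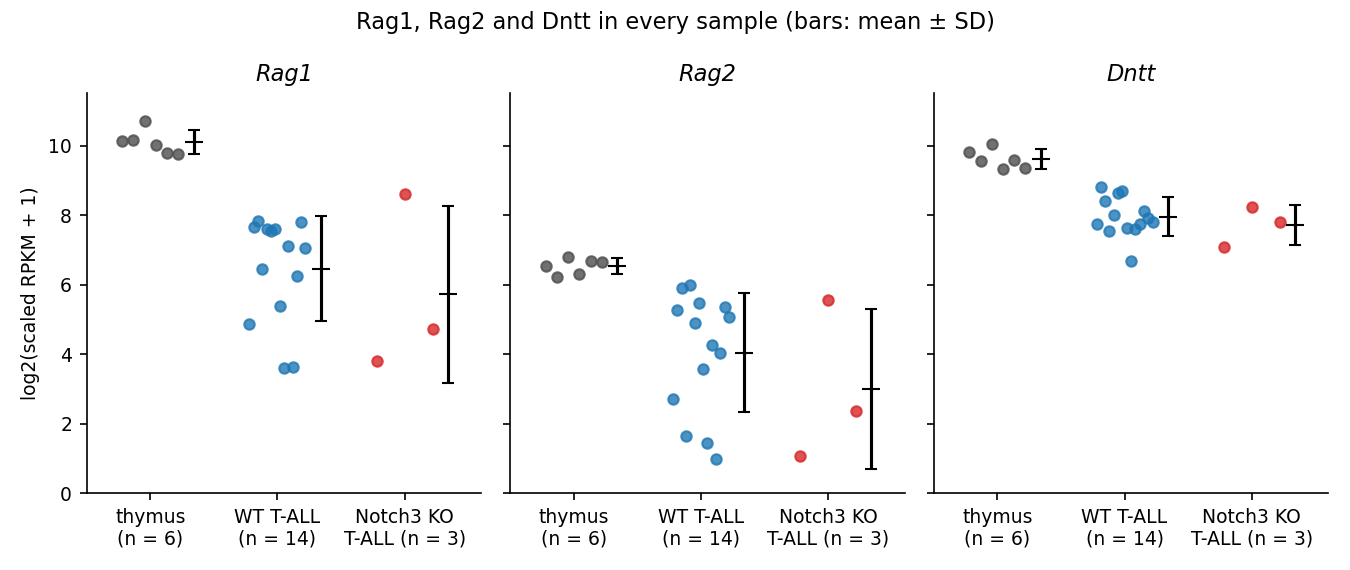
Rag1, Rag2 and Dntt in each of the 23 samples, as log2(scaled RPKM + 1) on the vertical axis, with 1 point per sample in thymus, WT T-ALL and Notch3 KO T-ALL and bars for the mean ± SD. All 17 leukemia points lie below all 6 thymus points in each panel, and the leukemias spread further for Rag1 and Rag2 than for Dntt.

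All 3 genes fell in WT T-ALL against thymus. In the limma fit across all genes, 22.3% of 11919 genes were called lower at a Benjamini-Hochberg adjusted p under 0.05 (51.6% in either direction), and 3 of these 3 genes were. Rag1 fell by 3.63 on the log2 scale (SE 0.67, 95% interval -5.01 to -2.25, limma adjusted p = 1.15e-04), a 12.4-fold difference. Rag2 fell by 2.48 (SE 0.71, -3.95 to -1.01, limma adjusted p = 0.00588) and Dntt by 1.66 (SE 0.24, -2.15 to -1.17, limma adjusted p = 6.04e-06). All 14 leukemias lay below all 6 thymus samples for each gene, which held for 6.64% of the genes tested. Ordered from the largest fall, Rag1 ranked 13, Rag2 87 and Dntt 274 of 11919 genes. The two-sided exact permutation test of the means gave p = 2.58e-05 for Rag1 and Dntt, the smallest value its 38760 splits allow, and p = 0.00317 for Rag2.

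The same 3 genes fell in Notch3 KO T-ALL against the same thymus samples. Here 16.3% of genes were called lower and 37.5% in either direction, and 3 of 3 were called lower by limma. The differences were -4.37 (SE 0.97) for Rag1, -3.53 (SE 1.03) for Rag2 and -1.91 (SE 0.35) for Dntt, with limma adjusted p = 0.00125, 0.00977 and 1.90e-04. The 3 leukemias lay below all thymus samples for each gene, as they did for 18.4% of genes, and the exact permutation test gave p = 0.0119 for each, the smallest value that 84 splits allow. The Rag2 call was lost without Notch3 KO T-ALL 1 (-2.56, limma adjusted p = 0.0986) and without Notch3 KO T-ALL 3 (-3.21, 0.0559).

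Markers of other cell types moved with these comparisons. The mean of 10 erythroid markers was 0.87 to 2.12 in thymus, while WT T-ALL samples had 3.20 to 7.33 and Notch3 KO T-ALL samples 6.37 to 8.60, so it did not overlap between disease and control. The neutrophil mean (7 markers) was 2.33 to 4.38 in thymus, 5.15 to 11.86 over WT T-ALL and 3.59 to 8.54 over Notch3 KO T-ALL samples, and the macrophage mean (7 markers) was 1.23 to 2.99, 1.75 to 5.32 and 4.59 to 5.12, overlapping thymus in WT T-ALL alone. The stroma mean (5 markers) was 0.23 to 0.46, 0.91 to 2.83 and 1.97 to 2.27, but in WT T-ALL Col1a2 (mean 0.05 in thymus, 3.90 in WT T-ALL) and Pdgfrb (0.98 to 1.64 in thymus, 2.08 to 6.58 in WT T-ALL) carried the difference, and Col1a1, Col3a1 and Dcn had means of at most 0.30 in both groups. With the erythroid mean as a covariate in the limma fit, the WT T-ALL differences were -3.76 for Rag1 and -3.76 for Rag2, no longer called (limma adjusted p = 0.0925 and 0.107), and -1.78 for Dntt, still called (limma adjusted p = 0.0281). For the Notch3 KO T-ALL samples the values were -4.57, -5.49 and -2.10, and none was called (limma adjusted p = 0.274, 0.206 and 0.159). What part the other cells had in the differences was not tested. In these bulk samples fewer cells that express a gene and less RNA per cell cannot be told apart. When the T-lineage mean of each sample was subtracted, the difference from thymus in WT T-ALL was -2.97 for Rag1, -1.82 for Rag2 and -0.998 for Dntt, with 14, 14 and 13 of 14 samples below all thymus samples and exact permutation p = 2.58e-05, 0.00668 and 1.03e-04. In Notch3 KO T-ALL it was -3.59, -2.75 and -1.13, with exact permutation p = 0.0238, 0.0833 and 0.0357 and 2 of 3 samples below all thymus samples for each gene. The share of all genes that lie so on the subtracted scale was not computed, so these sample counts have no background. The T-lineage mean was 8.26 in thymus and 7.60 in WT T-ALL, mostly through Cd5 (6.61 and 4.75), Cd247 (8.01 and 6.48) and Lck (9.54 and 8.64), while Cd3d (8.07 and 8.13), Cd3e (7.92 and 7.76) and Cd2 (7.10 and 6.94) were close to thymus, so the size of the subtracted differences depends on which markers are averaged. B-cell progenitors use the same machinery. Their 8 markers had a mean of 1.12 to 1.27 in thymus, while WT T-ALL samples had 0.19 to 0.51 and Notch3 KO T-ALL samples 0.28 to 0.40, and 6 of the 8 stayed under a scaled RPKM of 1 in every leukemia of each group. Pax5, which defines the B lineage, was at 0 in all 3 Notch3 KO T-ALL samples and at most 0.04 in WT T-ALL. The summed markers in the leukemias reached 6.67 scaled RPKM at most, against 101 for Dntt and 11.1 for Rag1 in the leukemia where each was lowest. Rag2 itself lay below 6.67 in 6 leukemias, WT T-ALL 3, 7, 110 and 120 and Notch3 KO T-ALL 1 and 3, at 0.993 to 5.58 scaled RPKM. What part of the transcripts of the 3 genes came from B-cell progenitors was not tested, and a sum of marker values does not give it.

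Within library set B (10 WT T-ALL against 4 thymus samples) the differences were -3.89 for Rag1, -2.35 for Rag2 and -1.80 for Dntt, with exact permutation p = 0.000999, 0.0200 and 0.000999, the first and last being the smallest that the design allows. Within set A (4 against 2) they were -3.06, -2.77 and -1.34, where no exact p can fall below 0.0667. Notch3 KO T-ALL against the 2 thymus samples of set A gave -4.05, -3.66 and -1.77, where the smallest exact p is 0.1. All 3 genes were lower than in thymus in each set.

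WT T-ALL and Notch3 KO T-ALL did not differ beyond their spread in any of the 3 genes. Of 11677 genes, 0.617% were called in this comparison (0.591% higher, 0.0257% lower), and 0 of the 3 were. The difference of Notch3 KO from WT T-ALL was -0.74 for Rag1 (95% interval -2.81 to 1.33), -1.05 for Rag2 (-3.26 to 1.16) and -0.25 for Dntt (-0.96 to 0.46). The limma adjusted p was 0.978, 0.960 and 0.980, and the exact permutation p, unadjusted, was 0.512, 0.4 and 0.493, so 0 of the 3 had an unadjusted p under 0.05. These intervals are wide enough to hold a 2-fold difference in either direction for both Rag genes. The 3 knockout samples did not sit together: Notch3 KO T-ALL 2 was above all 14 WT T-ALL samples for Rag1, while Notch3 KO T-ALL 1 was near the bottom of the WT T-ALL range for Rag1 and Rag2. Without Notch3 KO T-ALL 1 the Rag1 difference was 0.21 and the Dntt difference 0.06, and without Notch3 KO T-ALL 2 the Rag1 difference was -2.19 and the Rag2 difference -2.33. Within set A (3 against 4) the differences were -0.99, -0.88 and -0.43.

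Spread between leukemias set Rag1 and Rag2 apart from Dntt in WT T-ALL. The SD over the 14 samples was 1.51 for Rag1, 1.71 for Rag2 and 0.56 for Dntt. Of 11919 genes, 1.37% had a larger SD than Rag1 in these samples, 0.814% a larger SD than Rag2 and 25.2% a larger SD than Dntt. In thymus the SDs were 0.35, 0.23 and 0.28. Over the 17 leukemias WT T-ALL 110 and 120 and Notch3 KO T-ALL 1 held about 1% of the thymus Rag1 mean (0.994%, 1.03% and 1.17%), and the same samples held 12.7%, 26.6% and 16.9% of the thymus Dntt mean. WT T-ALL 5, at the top of the WT range for Rag1, held 20.5% of the thymus mean for Rag1, 64.1% for Rag2 and 42.8% for Dntt.

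**Figure D2:**
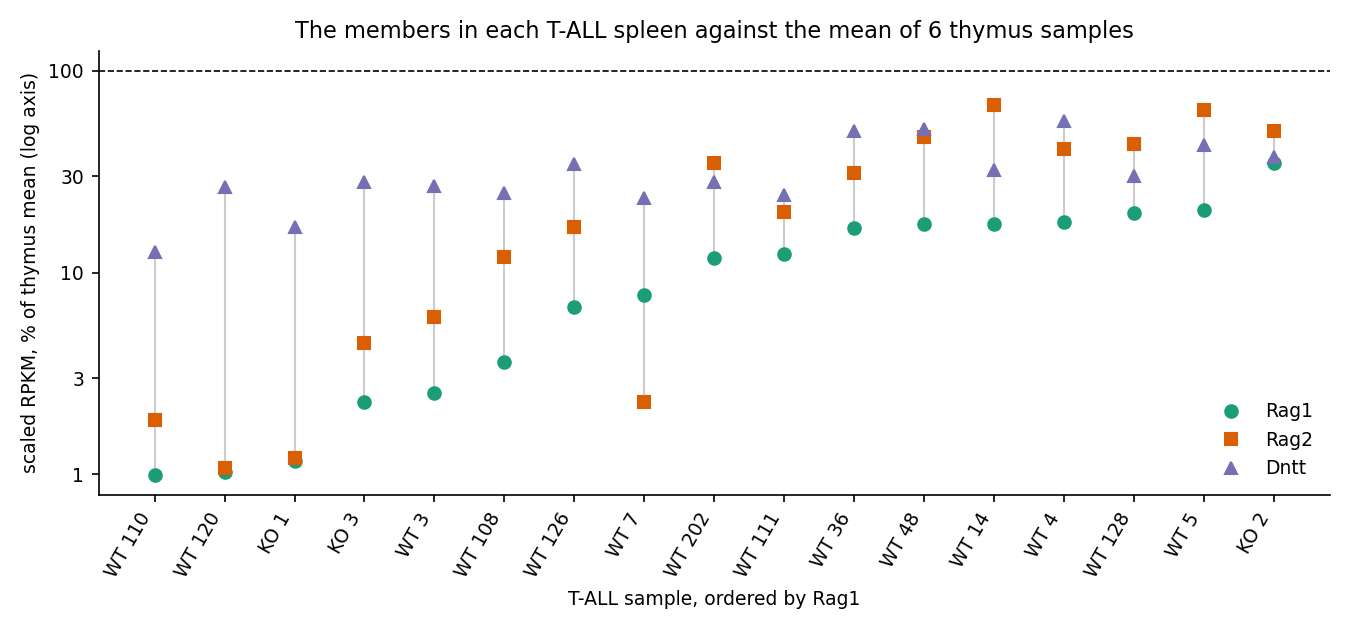
Scaled RPKM of Rag1, Rag2 and Dntt in each of the 17 leukemic spleens, as a percentage of the mean of 6 thymus samples on a log axis, with samples ordered by Rag1 from left to right. WT T-ALL 110 and 120 and Notch3 KO T-ALL 1 hold near 1% of the Rag1 mean but 12.7% to 26.6% of the Dntt mean, and WT T-ALL 7 has Rag2 (2.28%) below Rag1 (7.77%).

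The balance of the recombinase subunits differed between thymus and WT T-ALL, and less clearly between thymus and Notch3 KO T-ALL. RPKM is per length, so Rag1 and Rag2 can be set side by side. Log2 Rag1 minus log2 Rag2 was 3.56 ± 0.38 in thymus (SD, n = 6), and it was 2.41 ± 0.77 over the 14 WT T-ALL samples and 2.72 ± 0.35 over the 3 Notch3 KO T-ALL samples. WT T-ALL was lower than thymus by 1.15 (exact permutation p = 0.00297, adjusted over 3 comparisons 0.00890) and Notch3 KO T-ALL by 0.85 (exact permutation p = 0.0238, adjusted 0.0357, but p = 0.0714 without Notch3 KO T-ALL 3), while the leukemia groups differed by 0.30 (exact permutation p = 0.457, but 0.49 with unadjusted p = 0.0464 without WT T-ALL 7). WT T-ALL 7 stood apart at 4.82, above every thymus sample, where the other 13 WT T-ALL samples ran from 1.63 to 2.85. As a linear ratio, Rag1 was 8.68 to 15.6 times Rag2 in thymus, 41.3 times in WT T-ALL 7 and 11.6 times in WT T-ALL 120, whose Rag2 was near 1 scaled RPKM. For Notch3 KO T-ALL 1, 2 and 3 it was 11.7, 8.49 and 6.14 times, of which the first lay inside the thymus range. The shift was -1.54 within set B (exact permutation p = 0.000999, the smallest possible) and -0.29 within set A, which holds WT T-ALL 7 (exact permutation p = 0.867, smallest possible 0.0667). All 3 Notch3 KO T-ALL samples were in set A, where their difference from thymus was -0.39 (exact permutation p = 0.2, smallest possible 0.1). The thymus samples themselves differed between the sets, at 3.11 on average in set A and 3.79 in set B. With an offset of 0.1 in place of 1 the Notch3 KO T-ALL shift was -0.54 (exact permutation p = 0.0952).

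Across the 14 WT T-ALL samples the 3 genes rose and fell together. Rag1 and Rag2 had a Pearson r of 0.89 and a Spearman rho of 0.91 (permutation p = 8.00e-05 and 2.00e-05, Benjamini-Hochberg adjusted over 3 relations 2.40e-04 and 6.00e-05). Rag1 and Dntt gave r = 0.71 and rho = 0.68 (permutation p = 0.00308 and 0.00847, adjusted 0.00445 and 0.00847), and Rag2 and Dntt gave r = 0.70 and rho = 0.71 (permutation p = 0.00445 and 0.00543, adjusted 0.00445 and 0.00814). Without the 2 samples farthest from the median of the first gene, WT T-ALL 110 and 120 in each case, r was 0.78, 0.58 and 0.61 (permutation p = 0.00440, 0.0452 and 0.0327). Within set B (10 samples) r was 0.97, 0.70 and 0.66 (adjusted permutation p = 1.80e-04, 0.0333 and 0.0411), and rho for both relations with Dntt missed the threshold there (adjusted p = 0.0670). That set leaves out WT T-ALL 7. No r is given for set A, whose 4 WT T-ALL samples are fewer than the 6 taken as the least for a correlation. After the T-lineage mean of each sample was subtracted, r was 0.85 for both Rag genes, 0.45 for Rag1 with Dntt and 0.30 for Rag2 with Dntt, with adjusted permutation p = 0.00153, 0.171 and 0.313, so the relations with Dntt did not hold on that scale, and without WT T-ALL 110 and 120 that of the Rag genes did not either (r = 0.65, adjusted permutation p = 0.0715).

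**Figure D3:**
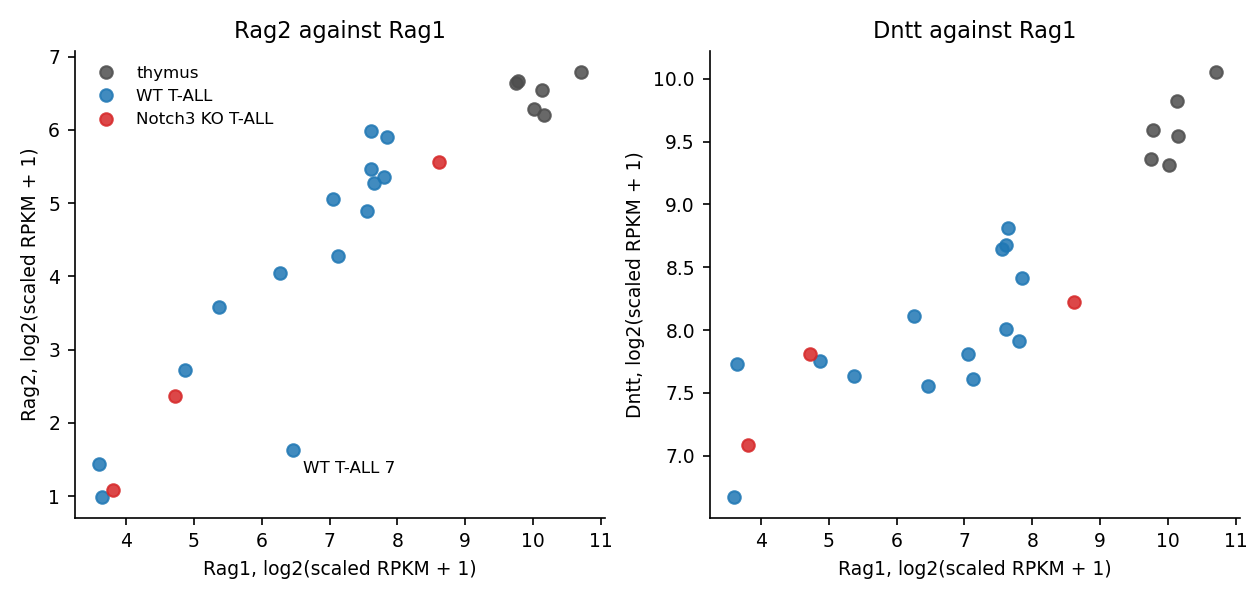
Rag2 (left) and Dntt (right) against Rag1 in all 23 samples, both axes as log2(scaled RPKM + 1), colored by group. The WT T-ALL points rise together with r = 0.89 on the left and r = 0.71 on the right, and WT T-ALL 7 lies below the other points of the left panel at its Rag1 level.

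Relations with the cell content of the spleens were computed over the same 14 samples, 12 in all. The T-lineage mean correlated with Rag1 (r = 0.63, rho = 0.62), Rag2 (r = 0.76, rho = 0.77) and Dntt (r = 0.69, rho = 0.70), with permutation p = 0.0165, 0.00202 and 0.00613 for r (0.0205, 0.00193 and 0.00752 for rho) and adjusted p = 0.0495, 0.0242 and 0.0329 for r (0.0818, 0.0232 and 0.0451 for rho). Without WT T-ALL 48 and 110 these r were 0.49, 0.70 and 0.48 (permutation p = 0.111, 0.0123 and 0.118, adjusted 0.282, 0.113 and 0.282), so all 3 calls were lost without those samples. Within set B they were 0.80, 0.78 and 0.88 (adjusted permutation p = 0.0153, 0.0153 and 0.00660). The mean of 8 double-positive thymocyte markers (Cd4, Cd8a, Cd8b1, Arpp21, Themis, Cd1d1, Aqp11, Ccr9) correlated with Rag1 (r = 0.68, rho = 0.56, permutation p = 0.00823 and 0.0373, adjusted 0.0329 and 0.112), again not without its 2 farthest samples (r = 0.44). With Rag2 and Dntt it gave r = 0.44 and 0.51 (rho = 0.41 for both, permutation p = 0.113 and 0.0609 for r, adjusted 0.193 and 0.146), past no threshold. Within set B, a division chosen after seeing the data, it gave r = 0.80 with Rag1, 0.81 with Rag2 and 0.78 with Dntt (adjusted permutation p = 0.0153, 0.0153 and 0.0154). The erythroid mean gave r = -0.20, 0.07 and -0.14 with Rag1, Rag2 and Dntt (permutation p = 0.483, 0.805 and 0.634, adjusted 0.625, 0.805 and 0.691), and the B-cell progenitor mean gave -0.32, -0.19 and -0.48 (permutation p = 0.265, 0.521 and 0.0773, adjusted 0.397, 0.625 and 0.155). Within set B the B-cell progenitor mean passed the threshold with Dntt by r (-0.70, adjusted permutation p = 0.0371) but not by rho (adjusted 0.212). The double-positive mean itself was 7.61 to 8.10 in thymus, while WT T-ALL samples had 3.99 to 6.08 and Notch3 KO T-ALL samples 4.69 to 6.24.

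The genes most like each member were ranked by Pearson r over the 14 WT T-ALL samples among 7996 genes with a mean scaled RPKM of at least 5. For Rag1 they included Arntl (r = 0.88), Sin3b (0.87), a (nonagouti, 0.86) and Cdc16 (0.86). Arntl encodes a transcription factor of the circadian clock and Sin3b a corepressor scaffold. For Rag2 they were Ptcra (0.86), Cdc16 (0.86), P2rx1 (0.86), Golga5 (0.85) and Ldhb (0.85). Ptcra encodes the pre-T-cell receptor α chain, which pairs with a newly rearranged β chain. For Dntt they were Ccdc69 (0.83), Sit1 (0.82), Lck (0.82), Tspan13 (0.82) and Pde3b (0.81). Lck, the kinase bound to CD4 and CD8, is also among the T-lineage markers, and Ptcra is a double-negative thymocyte marker. These r are the highest of many and are given as a description.

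Arntl read 2.02 in WT T-ALL 120, 2.81 in WT T-ALL 110 and 2.90 in Notch3 KO T-ALL 1, the 3 leukemias with the least Rag1, and 3.88 in Notch3 KO T-ALL 2, the leukemia with the most. WT T-ALL 4, 5, 36 and 202 had more Arntl than that (3.93 to 4.36) with less Rag1. Its range was 2.02 to 4.36 in WT T-ALL, below all thymus samples (mean 4.92 ± 0.10). Ptcra was lowest in WT T-ALL 120 (1.37) and in Notch3 KO T-ALL 1 (1.27) and reached 6.53 in WT T-ALL 14. Unlike Rag2, Ptcra overlapped the controls, with a mean of 4.98 in WT T-ALL against 4.54 ± 0.17 in thymus. Without the 2 samples farthest from the median of the member, r was 0.75 for Arntl with Rag1 and 0.75 for Ptcra with Rag2.

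**Figure D4:**
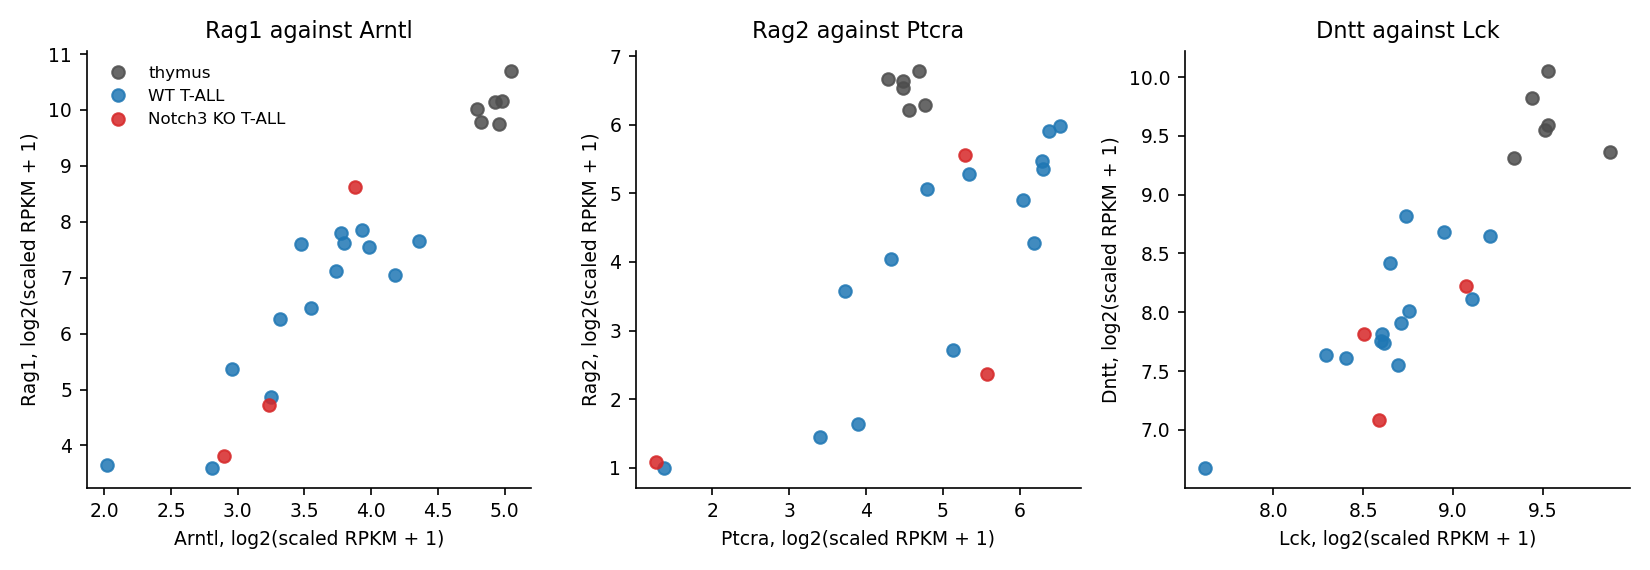
Rag1 against Arntl, Rag2 against Ptcra and Dntt against Lck in all 23 samples, both axes as log2(scaled RPKM + 1), colored by group. In WT T-ALL r is 0.88, 0.86 and 0.82, and the thymus points lie at the upper right for Arntl and Lck but not for Ptcra, where they sit near 4.54.

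Of 10 genes for the ubiquitous proteins that open and join the cut ends, all tested, 3 were higher and 4 lower in WT T-ALL against thymus (limma adjusted p under 0.05, where 29.3% of all genes were called higher and 22.3% lower), and the median difference was -0.28 against 0.08 over all genes. Dclre1c, which encodes Artemis, fell by 1.36 (SE 0.17, limma adjusted p = 1.18e-06), with all 14 leukemias below all thymus samples. The Ku subunits Xrcc5 and Xrcc6, which bind broken ends, rose by 1.08 (SE 0.23) and 1.07 (SE 0.30), and the polymerase Poll rose by 1.07 (SE 0.31), with limma adjusted p = 5.76e-04, 0.00505 and 0.00614. In Notch3 KO T-ALL 3 of the 10 were lower and 0 higher, where 21.2% of all genes were called higher and 16.3% lower, among them Dclre1c (-1.24, limma adjusted p = 5.29e-04) and the ligase Lig4 (-1.17, limma adjusted p = 0.0169, not called without Notch3 KO T-ALL 1).

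Among partners of the recombinase and genes of the break response, 6 of 15 tested were higher and 0 lower in WT T-ALL, with a median of 0.29, where 29.3% of all genes were called higher and 22.3% lower. In Notch3 KO T-ALL 2 were higher and 0 lower, with a median of 0.34, where 21.2% of all genes were called higher and 16.3% lower. Nbn and Rad50, of the complex that senses broken ends, rose by 1.27 (SE 0.19) and 0.53 (SE 0.14) in WT T-ALL. Kpna2, an importin, rose by 0.78 (SE 0.16), and Hmgb2, a DNA-bending cofactor of RAG, by 0.58 (SE 0.20), with limma adjusted p = 4.32e-04 and 0.0173. Hmgb2 turned to -0.12 under quantile normalization and was not called without thymus 4. In Notch3 KO T-ALL Nbn rose by 1.31 and Kpna2 by 0.88 (limma adjusted p = 7.68e-04 and 0.00567).

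Among transcription factors that act on the Rag and Dntt genes, 8 of 15 tested were lower and 1 higher in WT T-ALL, with a median of -0.83, where 22.3% of all genes were called lower and 29.3% higher. Against the same thymus samples 8 were lower and 1 higher in Notch3 KO T-ALL, with a median of -0.74, where 16.3% of all genes were called lower and 21.2% higher. In WT T-ALL Satb1, a chromatin organizer of thymocytes, fell by 2.38 (SE 0.21, limma adjusted p = 8.72e-09) and the T-cell factor Bcl11b fell by 1.31 (SE 0.17, limma adjusted p = 1.07e-06), each with all 14 leukemias below all thymus samples. Tcf3, Tcf12, Runx1 and Ikzf1, of the families whose motifs are given above, were called against thymus in neither leukemia group. In WT T-ALL they differed by 0.00078, -0.13, 0.13 and -1.18 (limma adjusted p = 0.997, 0.629, 0.472 and 0.136). Gfi1b, which encodes a repressor also made by red cell precursors, rose by 2.30 in WT T-ALL (0.21 ± 0.16 in thymus, 2.51 ± 0.97 in WT T-ALL) and by 3.91 in Notch3 KO T-ALL, and it was 0.64 and 1.36 with the erythroid mean as a covariate, past no threshold.

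Of 10 genes beside the loci, 3 were below the filter, and of the 7 tested 1 was higher and 1 lower in WT T-ALL, with a median of -0.10, where 29.3% of all genes were called higher and 22.3% lower. On the Dntt side Tm9sf3 fell by 0.54 (SE 0.13) and on the Rag side Commd9 rose by 0.37 (SE 0.13), with limma adjusted p = 0.00154 and 0.0253, the latter not called without thymus 4. B230118H07Rik, which overlaps both Rag genes, was 3.98 ± 0.71 in thymus, 2.85 ± 1.53 over WT T-ALL and 1.53 ± 0.95 over Notch3 KO T-ALL samples, with a fall against thymus of 2.45 in Notch3 KO T-ALL (limma adjusted p = 0.0300) and a difference of -1.13 in WT T-ALL (limma adjusted p = 0.116). Reads from the exon stretches it shares with the Rag genes cannot be assigned with certainty, so its values may not be independent of theirs. In Notch3 KO T-ALL Tm9sf3 also fell, by 0.56 (limma adjusted p = 0.0240), and 2 of the 7 neighbours were lower, where 16.3% of all genes were. Both calls were lost when any of several single samples was left out, thymus 1 or 5 or Notch3 KO T-ALL 1 or 3 for B230118H07Rik and thymus 3 or Notch3 KO T-ALL 1 or 3 for Tm9sf3. With the erythroid mean as a covariate, Satb1 was the 1 named gene of these lists still called against thymus. Within set A Poll, Kpna2, Hmgb2, Rad50, Tm9sf3 and Commd9 were not called in WT T-ALL, and within set B Hmgb2, Rad50 and Commd9 were not. Between WT and Notch3 KO T-ALL 0 genes of these 4 lists were called.

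**Figure D5:**
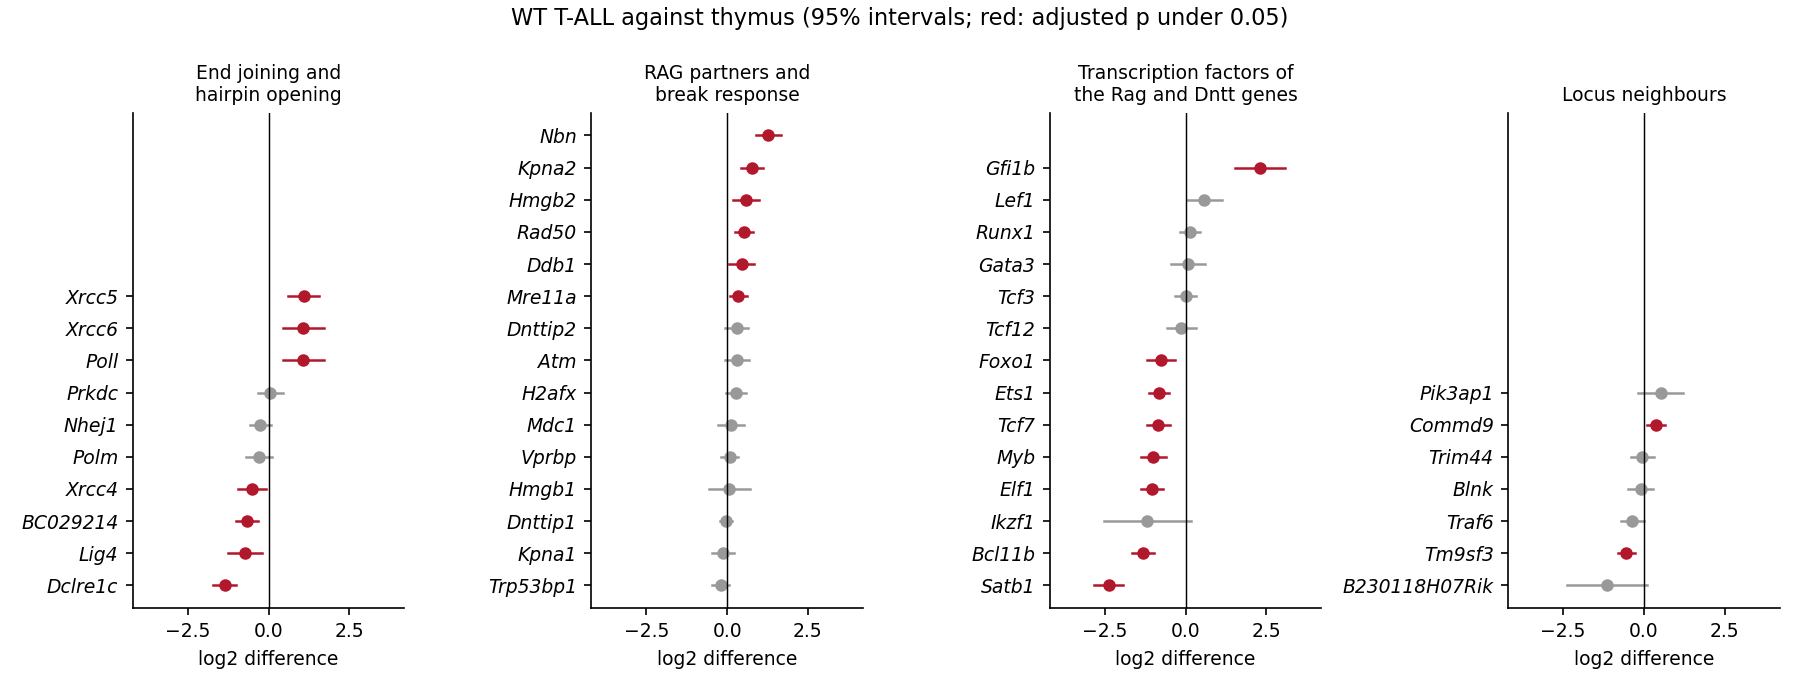
Log2 difference of WT T-ALL from thymus for the genes of 4 lists, with 95% intervals, ordered by size within each list and colored red at a limma adjusted p under 0.05. Symbols are those of the table, in which Paxx is BC029214, Dcaf1 is Vprbp and Iftap is B230118H07Rik. End joining genes lie on both sides of 0, with Dclre1c lowest at -1.36, and most of the red factors lie on the left. The factor panel draws 14 of the 15 tested.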

How the data were processed

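The authors sequenced total RNA as stranded, paired-end mRNA libraries, aligned them with OSA (ArrayStudio) against mm10 and derived gene values in that software. The deposited values are log2. Read from the values, they are log2(RPKM + 1), where the 75th percentile of RPKM was set to 10 per sample. They hold no counts, so the depth of each library is unknown and no interval based on depth is given. Spreadsheet dates were turned back to 27 gene symbols by gene identifier. T-cell receptor constant-region genes were not analysed here.

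The limma test (version 3.58.1, R 4.3.3, eBayes with trend and robust) covered genes that reached a scaled RPKM of 1 in 3 or more fitted samples, with 3 groups in 1 fit for the comparisons with thymus and the T-ALL groups alone for the other. Single genes also had two-sided exact permutation tests of the mean log2 value. Both were tested on simulated data. Permutation p-values of correlations used 100000 resamples. The authors count each point as 1 mouse in their plots of gene expression, and litters were not given in the sources used here. The p-values measure the spread between these samples.

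The members and lists were chosen with earlier results of these data known. Named from each list are up to 4 genes with the largest difference among those called in WT T-ALL against thymus and up to 2 in the other comparisons. Tcf3, Tcf12, Runx1 and Ikzf1 are named besides, for the promoter motifs. As most like a member, 5 genes are named, leaving out receptor segments, ribosomal protein and predicted genes. A gene that these rules name is not reported here, though list counts and medians include it.

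Alternatives were an offset of 0.1, quantile normalization, other filters, fits and references, an erythroid covariate, leaving out each sample, a replicate block and the inferred library sets (mean of Sco2, 1110002L01Rik, Srsf4, Nr2c2ap and Kcnmb4), the last chosen after seeing the data. Promoters came from RefSeq on GRCm38.p6, matched for 3 of 3 genes.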

Additional observations from a re-analysis of the deposited data

How the results depend on the processing

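Against thymus, Rag1, Rag2 and Dntt kept their direction under every alternative run. With the erythroid mean as a covariate, Rag1 and Rag2 differed by -3.76 and -3.76 in WT T-ALL and Rag1, Rag2 and Dntt by -4.57, -5.49 and -2.10 in Notch3 KO T-ALL, all past the threshold no longer, and the genes called fell to 1243, 185 and 15 in the 3 comparisons. Under it 0 end joining genes, 0 partners and 0 neighbours were called against thymus in either group, with 1 factor in WT T-ALL and 0 in Notch3 KO T-ALL. The marker mean did not overlap between thymus and T-ALL, and the cause was not tested. Within set A, Rag2 and Dntt in WT T-ALL (-2.77 and -1.34) and Rag1 and Rag2 in Notch3 KO T-ALL (-4.05 and -3.66) missed the threshold, with fewer samples, and 1555 genes were called in WT T-ALL. With the T-lineage mean subtracted, Rag2 in Notch3 KO T-ALL (-2.75) missed it. Quantile normalization moved the median of all genes for Notch3 KO T-ALL against thymus from 0.08 to -0.05.

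Nothing in the labels says that their numbers pair the samples. The deviations of same-numbered samples correlated at -0.24 to 0.15, but no differently numbered samples were set beside them, so pairing is not settled. With the replicate block, in 3 samples a group, Rag2 was -1.95 in WT T-ALL (limma adjusted p = 0.0975) and -3.51 in Notch3 KO T-ALL (0.0583). Rag1 and Dntt kept their calls under the block, at -3.38 and -1.33 in WT T-ALL and -4.61 and -2.10 in Notch3 KO T-ALL. The block left 1942 of 10546 genes called in WT T-ALL and 3630 of 10828 in Notch3 KO T-ALL. In WT T-ALL it left 2 end joining genes, 4 partners, 5 factors and 0 neighbours. Between the T-ALL groups no such block was possible, because they share only 1 number.

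The list counts that follow are in either direction. Set A gave 4 end joining genes, 1 partner, 5 factors and 0 neighbours for WT T-ALL, where 1555 of 10598 genes were called. For Notch3 KO T-ALL set A gave 5 end joining genes, where 3452 of 10627 genes were called. Set B gave 2 partners and 1 neighbour for WT T-ALL, where 4920 of 11512 genes were called. With only the groups compared, Notch3 KO T-ALL gave 6 end joining genes, 4 partners and 4 neighbours, where 5376 of 10991 genes were called. With the library set as a term it gave 5 end joining genes and 1 neighbour, where 4821 of 11919 genes were called. Between the T-ALL groups the genes called were 39 with an offset of 0.1, 134 with no filter, 6 with the filter at 5, 254 with 3 groups fitted, 159 with the library set as a term and 13 within set A, and 0 list genes were called throughout.

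Leaving out each sample in turn, WT T-ALL against thymus ranged from -3.74 to -3.41 for Rag1, -2.63 to -2.25 for Rag2 and -1.73 to -1.56 for Dntt, with 5431 to 6313 genes called. Notch3 KO T-ALL against thymus ranged from -5.82 to -3.42, -4.81 to -2.56 and -2.17 to -1.60, with 2859 to 4292 genes called, the lowest without Notch3 KO T-ALL 3. Notch3 KO against WT T-ALL ranged from -2.19 to 0.21, -2.33 to -0.08 and -0.51 to 0.06, with 3 (without Notch3 KO T-ALL 2) to 205 (without Notch3 KO T-ALL 1) genes called, 12 without Notch3 KO T-ALL 3 and 158 without WT T-ALL 108, against 72 with all. Without Notch3 KO T-ALL 1 Dntt was 0.0627. Neighbours called ranged from 1 (without thymus 4) to 3 for WT T-ALL and from 0 (without Notch3 KO T-ALL 1 or 3) to 4 (without Notch3 KO T-ALL 2), and end joining genes in Notch3 KO T-ALL from 2 to 5.

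Rag1 minus Rag2 ranged from -1.34 to -1.07, -1.02 to -0.67 and 0.13 to 0.49 in the 3 comparisons with each sample left out. Without WT T-ALL 7 the leukemia groups differed by 0.49 (exact permutation p = 0.0464, unadjusted). Within set A it was -0.29, -0.39 and -0.10, and with an offset of 0.1 -0.54 in Notch3 KO T-ALL. The relations with Dntt were 0.45 (Rag1) and 0.30 (Rag2) with the T-lineage mean subtracted. Without the farthest samples, the T-lineage mean gave 0.49, 0.70 and 0.48, double-positive markers gave 0.44 with Rag1 and the erythroid mean gave -0.0291 with Rag2. Within set B the latter was -0.0346, double-positive markers gave 0.81 and 0.78 with Rag2 and Dntt, and B-cell progenitor markers gave -0.70 with Dntt (adjusted permutation p = 0.0371). Hmgb2 in WT T-ALL was -0.12 under quantile normalization.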
